A study of Arabidopsis thaliana with 72 samples.

Results

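CBF5 (AT3G57150, also called NAP57), GAR1 (AT3G03920), NHP2 (AT5G08180) and NOP10 (AT2G20490) encode the proteins of the H/ACA small nucleolar ribonucleoprotein (snoRNP) of *Arabidopsis*. These 4 genes were taken by their identifiers from the 32833 genes of an expression table, together with the pseudouridine (Ψ) sites that lie inside them, which were 3 of 8512 listed sites. Poly(A)-tailed RNA of 9 tissues of col-0 plants was studied by BID-seq, in which bisulfite treatment marks Ψ so that reverse transcription leaves a gap there. The tissues were root and shoot at 14 days, seedling at 7 days, rosetta leaf at 30 days, cauline leaf, stem, flower and silique taken after flowering, and mature dry seed. Each tissue was a bulk sample of many cell types, and no mutant or treated plant was included, so each tissue was set against the other 8. Expression was given as TPM (transcripts scaled for their length and for the total of the column) in 16 columns. Rosetta leaf and seed had 1 column, and the other 7 tissues had 2 each.

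In an H/ACA snoRNP, a guide RNA with 2 hairpins and an ACA box near its 3′ end pairs with a target, and CBF5, the plant counterpart of human dyskerin and yeast Cbf5, converts the chosen uridine to Ψ. NOP10 and NHP2 help to hold the guide RNA and CBF5 in the active arrangement, and GAR1 binds CBF5 and takes part in substrate turnover, roles worked out mainly in yeast and archaea. The main targets are ribosomal and spliceosomal RNAs, and box C/D snoRNPs, built on different proteins, guide the methylation of ribose in the same classes of RNA.

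CBF5 lies on the minus strand of chromosome 3 at bases 21153815 to 21156075 of TAIR10 and has 1 annotated transcript with a single exon and a coding length of 1698 bases. GAR1 lies on the minus strand of chromosome 3 at 1008995 to 1010573, with 1 transcript of 4 exons and 609 coding bases. NHP2 lies on the minus strand of chromosome 5 at 2631516 to 2633890, with 2 transcripts and 471 coding bases. NOP10 lies on the plus strand of chromosome 2 at 8831681 to 8832929, with 3 transcripts and at most 195 coding bases. Their gene models had lengths of 2261, 931, 1314 and 617 bases in the expression table.

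GAR1 held all 3 of the listed Ψ sites. The 21 bases around each site follow, 5′ to 3′ on the GAR1 strand, because they show the sequence in which each Ψ was called. The capital is the position listed by the authors, and the sequences were read from the RefSeq TAIR10.1 genome.
GAR1 site in exon 4, chr3:1009148-1009168: acgcggtggcTctcgtggaag
GAR1 site at the start of exon 3, chr3:1009588-1009608: tcttcttcagTtgttttctat
GAR1 site in exon 1, chr3:1010394-1010414: acgcagtcttTgcggaatctg
The exon 4 site, at base 1009158, is the first base of codon 192 in the coding sequence. The site at base 1009598 is the first base of exon 3 and of codon 110, so the 10 bases printed before it belong to the intron and are absent from the spliced mRNA. The exon 1 site, at base 1010404, is in the 5′-UTR, 25 bases upstream of the start codon. The exon 3 and exon 1 positions are as listed. Each lies in a run of T, in which the reads do not fix the base that a gap stands for.

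NHP2 is also a host gene: its intron at bases 2632203 to 2633063, 861 bases long, holds 3 annotated snoRNA genes on the same strand. Their sequences are given because all of them carry the ACA box that defines the class of RNA bound by the 4 proteins; the capitals mark that box, which stands 3 bases before the annotated 3′ end in each.
AtsnoR100 (AT5G01495), chr5:2632300-2632416: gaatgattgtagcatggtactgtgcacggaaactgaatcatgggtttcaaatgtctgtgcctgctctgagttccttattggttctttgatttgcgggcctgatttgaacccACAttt
snoR140 (AT5G01505), chr5:2632524-2632665: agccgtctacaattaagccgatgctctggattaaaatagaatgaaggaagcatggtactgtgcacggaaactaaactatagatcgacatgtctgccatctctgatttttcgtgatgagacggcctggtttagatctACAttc
AtsnoR100a (AT5G01515), chr5:2632770-2632923: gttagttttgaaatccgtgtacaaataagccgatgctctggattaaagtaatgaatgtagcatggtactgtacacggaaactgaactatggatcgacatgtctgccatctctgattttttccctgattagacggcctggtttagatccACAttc
Of 287 annotated snoRNA genes in the expression table, 52 (18.1%) had ACA at this distance from the end. Same-strand snoRNA genes lay within 46 of 27444 protein-coding genes (0.168%), and 7 of these held 3 or more, NHP2 among them. snoR140 and AtsnoR100a share an identical run of 29 bases and AtsnoR100 and snoR140 one of 24 bases, so counts could be split among them. In the poly(A)-selected RNA their columns read 0 to 8.16 TPM for AtsnoR100, 0 to 8.58 TPM for snoR140 and 0 to 10.6 TPM for AtsnoR100a. These levels were low in every tissue, and each of the snoRNAs was listed at 0 in 2 or 3 of the 16 columns. For comparison, the highest column of an annotated snoRNA gene had a median of 21.9 TPM.

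By tissue mean of the deposited TPM, all 4 protein genes were highest in root and lowest in cauline leaf. Root was not separated from seed for GAR1 (limma adjusted p = 0.222) or from flower for NOP10 (0.475). For GAR1 the top rank also depended on scaling, as root exceeded seed by only 0.14 on the log2 scale. Rescaling the columns to a common median of 8463 genes removed shifts of 0.13 and 0.08 from the root columns. From the seed column it removed -0.26, which puts seed above root for GAR1. CBF5, the synthase itself, spanned the widest range: it averaged 198 TPM in root and 11.3 TPM in cauline leaf, a 17.5-fold range. The ranges were 9.58-fold for NHP2, 6.50-fold for GAR1 and 5.31-fold for NOP10. Taken on the log2(TPM + 1) scale, the ranges were 4.02 for CBF5, 3.15 for NHP2, 2.67 for GAR1 and 2.36 for NOP10. The median range on that scale was 1.87 among the 8589 genes that reached 5 TPM in all 9 tissues. Within these log2 ranges the 4 genes stood at percentiles 91.1, 81.9, 73.5 and 66.2 in the same order. The moderated F test of limma on log2(TPM + 1) gave F = 678.2 for CBF5, 250.6 for GAR1, 233.6 for NHP2 and 282.6 for NOP10, with the largest adjusted p of the 4 being 2.26e-10 (NHP2). The same test called 97.0% of the 26078 genes tested, so that passing it did not set these genes apart. In bulk tissue a smaller share of cells that express a gene and less of its RNA per cell cannot be told apart.

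**Figure D1:**
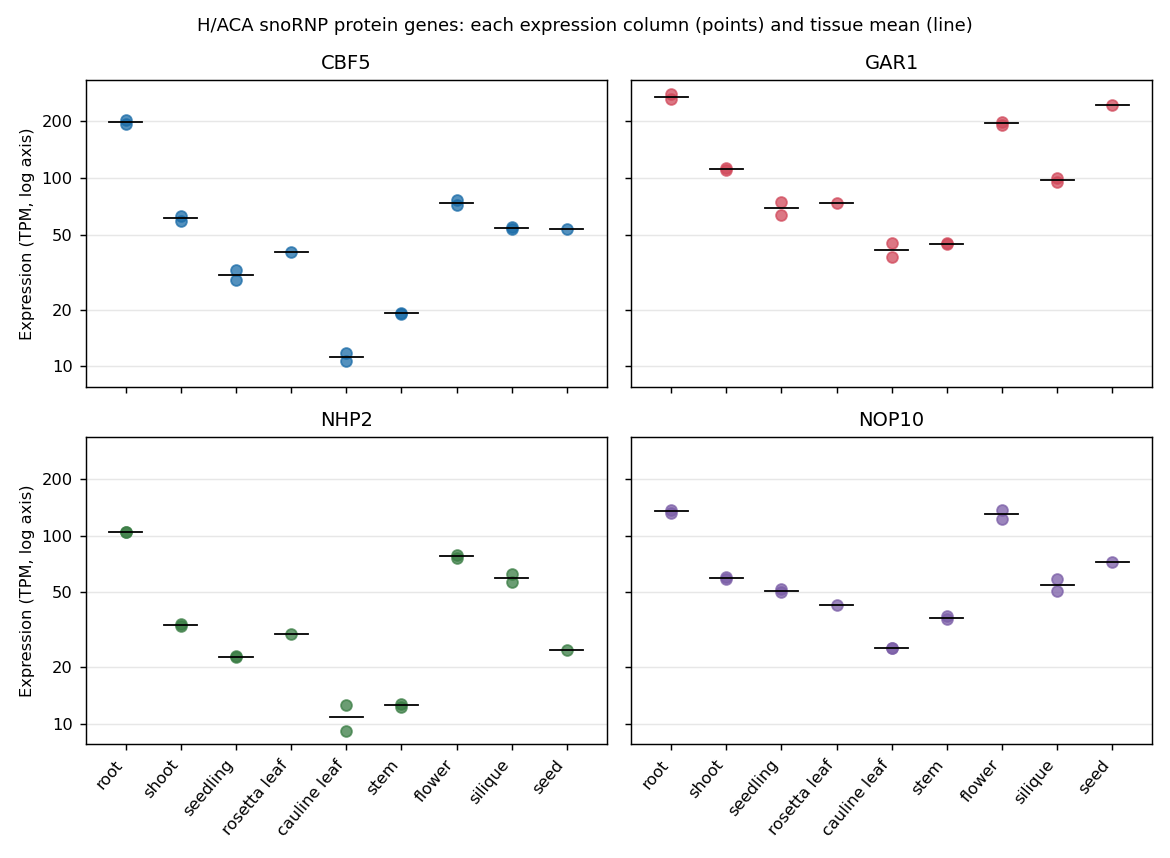
TPM of CBF5, GAR1, NHP2 and NOP10 (vertical log axis) in 9 tissues; each point is 1 expression column and each line a tissue mean. In all 4 panels the mean is highest in root and lowest in cauline leaf. GAR1 alone has a seed level (244 TPM) close to its root level, and rescaling the columns puts its seed level above root.

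CBF5 read 203 and 192 TPM in root, the 2 highest of its 16 columns. In flower it read 76.1 and 71.9 TPM, in shoot 63.2 and 59.3 TPM, in silique 55.3 and 53.5 TPM and in the single seed column 53.4 TPM. The remaining tissues were lower, with 40.3 TPM in rosetta leaf, 28.9 and 32.5 TPM in seedling, 19.0 and 19.2 TPM in stem, and 11.8 and 10.8 TPM in cauline leaf. No column of root overlapped with any other tissue, and none of cauline leaf did at the low end. Columns of the same tissue differed by 1.08% to 11.5%, and of the neighbours in this order only silique and seed were not told apart (difference 0.03 ± 0.08 on the log2 scale, SE, limma adjusted p = 0.767). Of all 36 tissue pairs, 35 passed the test for CBF5, where 71.2% of all gene and pair combinations passed.

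GAR1, the subunit that binds CBF5 and joins the particle late in its maturation in yeast, was the most abundant of the 4 in all 16 columns. It read 261 and 280 TPM in root, 244 TPM in seed and 192 and 198 TPM in flower. It had 110 and 114 TPM in shoot, 95.6 and 100.3 TPM in silique, 73.7 TPM in rosetta leaf and 63.4 and 74.5 TPM in seedling, and its lowest tissues were stem with 44.4 and 44.9 TPM and cauline leaf with 45.3 and 37.9 TPM. The columns of stem lay between those of cauline leaf, and the rosetta leaf column lay between those of seedling. Root and seed differed by 0.14 ± 0.10 on the log2 scale (SE, limma adjusted p = 0.222). Shoot and silique (limma adjusted p = 0.0606), rosetta leaf and seedling (0.442) and stem and cauline leaf (0.324) were not separated either. The test passed 32 of 36 pairs, where 71.2% of all gene and pair combinations passed.

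NHP2, an RNA-binding subunit of the particle, read 104 and 105 TPM in root, 79.1 and 76.4 TPM in flower and 62.2 and 56.8 TPM in silique. These 3 tissues did not overlap with the rest, in which NHP2 read 33.1 and 34.1 TPM in shoot, 29.9 TPM in rosetta leaf, 24.8 TPM in seed and 23.0 and 22.6 TPM in seedling. Stem had 12.7 and 12.4 TPM and cauline leaf 12.5 and 9.23 TPM, with stem columns on both sides of the higher cauline leaf column. The 30.4% gap between the cauline leaf columns was the largest for any of the 4 genes in a tissue. Shoot and rosetta leaf (adjusted p = 0.263), rosetta leaf and seed (0.129), seed and seedling (0.4), and stem and cauline leaf (0.112) were the neighbours that limma did not separate. For NHP2, 32 of 36 pairs passed, beside 71.2% of all gene and pair combinations.

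NOP10, the smallest of the proteins, read 132 and 137 TPM in root and 137 and 123 TPM in flower, and the columns of these tissues overlapped. Seed followed with 72.3 TPM, shoot with 59.1 and 60.1 TPM, silique with 51.0 and 58.6 TPM and seedling with 51.7 and 50.2 TPM. It was lower in rosetta leaf with 42.7 TPM, in stem with 35.9 and 37.2 TPM and in cauline leaf with 25.3 and 25.4 TPM. Root and flower differed by 0.05 ± 0.06 on the log2 scale (SE, limma adjusted p = 0.475). Shoot and silique (adjusted p = 0.113) and silique and seedling (0.19) were not separated either. For NOP10, 33 of 36 pairs passed, beside 71.2% of all gene and pair combinations.

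Against the mean of the other 8 tissues, root was higher for all 4 genes. On the log2(TPM + 1) scale the differences were 2.38 ± 0.05 for CBF5 (SE, limma adjusted p = 9.05e-13), 1.86 ± 0.08 for NHP2 (4.75e-10), 1.55 ± 0.06 for GAR1 (5.24e-10) and 1.33 ± 0.05 for NOP10 (1.99e-10). Of all genes tested, 50.4% were called higher in root, and the 4 genes stood at percentiles 80.6 to 91.9 of all root differences. Flower was higher for all 4 genes too, by 1.39 ± 0.08 for NHP2, 1.27 ± 0.05 for NOP10, 1.02 ± 0.06 for GAR1 and 0.80 ± 0.05 for CBF5, where 47.0% of all genes tested were called higher. CBF5 thus had the largest root difference of the 4 and the smallest flower difference.

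Cauline leaf was lower for all 4 genes, where 44.1% of all genes tested were called lower. The difference fell by 2.14 ± 0.05 for CBF5 (SE, limma adjusted p = 6.99e-12), by 1.69 ± 0.08 for NHP2, by 1.46 ± 0.06 for GAR1 and by 1.33 ± 0.05 for NOP10, on the log2 scale. These values stood at percentiles 1.23 to 7.09 of all cauline leaf differences. Stem was lower for all 4 genes as well (43.6% of all genes called lower), with differences of -1.47 for NHP2, -1.34 for both CBF5 and GAR1 and -0.76 for NOP10, and so was seedling (29.3% called lower), with differences of -0.66 for GAR1, -0.60 for CBF5, -0.55 for NHP2 and -0.23 for NOP10.

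The remaining tissues divided the genes. Among all seed differences, whose median was -0.63, NOP10 stood at percentile 78, CBF5 at 77.1 and NHP2 at 56.8. In seed, GAR1 was higher by 1.39 ± 0.09 on the log2 scale (SE, limma adjusted p = 2.52e-08), at percentile 91.4 of all seed differences. NOP10 was higher by 0.33 ± 0.07 (adjusted p = 0.00073) and CBF5 by 0.28 ± 0.06 (0.00202), whereas NHP2 was lower, with a difference of -0.42 ± 0.10 (0.0027). Of all genes tested, 22.8% were called higher and 60.5% lower in seed. The NHP2 call was lost when the columns were rescaled to a common median of 8463 genes (-0.16, adjusted p = 0.144 by limma), and all seed and rosetta leaf values rest on 1 column each, which was assumed to vary like the other tissues. In silique, NHP2 was higher by 0.96 ± 0.08 and CBF5 by 0.31 ± 0.05, while the differences of NOP10 (-0.12, limma adjusted p = 0.05) and GAR1 (-0.09, and 0.0876 without seed) did not pass; 42.0% of all genes were called higher there.

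In shoot and rosetta leaf, 5 of the 8 differences changed direction when the columns were rescaled. In shoot, where 49.3% of all genes were called higher, CBF5 was higher by 0.50 ± 0.05 on the log2 scale, and GAR1 (0.13), NHP2 (0.06) and NOP10 (0.02) did not pass. After rescaling their differences were negative, at -0.14 for GAR1, which did not pass, and at -0.20 for NHP2 and -0.24 for NOP10, which passed as lower (limma adjusted p = 0.0283 and 0.00125). In rosetta leaf, where 54.6% of all genes were called lower, the differences were -0.54 for GAR1, -0.51 for NOP10, -0.17 for CBF5 and -0.13 for NHP2, the last of which did not pass; after rescaling, GAR1 and NOP10 no longer passed, CBF5 passed as higher (0.18, limma adjusted p = 0.0121) and NHP2 had a positive difference of 0.21 that did not pass. The shifts that the rescaling removed were -0.34 for the rosetta leaf column and 0.22 and 0.20 for the shoot columns, on the log2 scale.

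**Figure D2:**
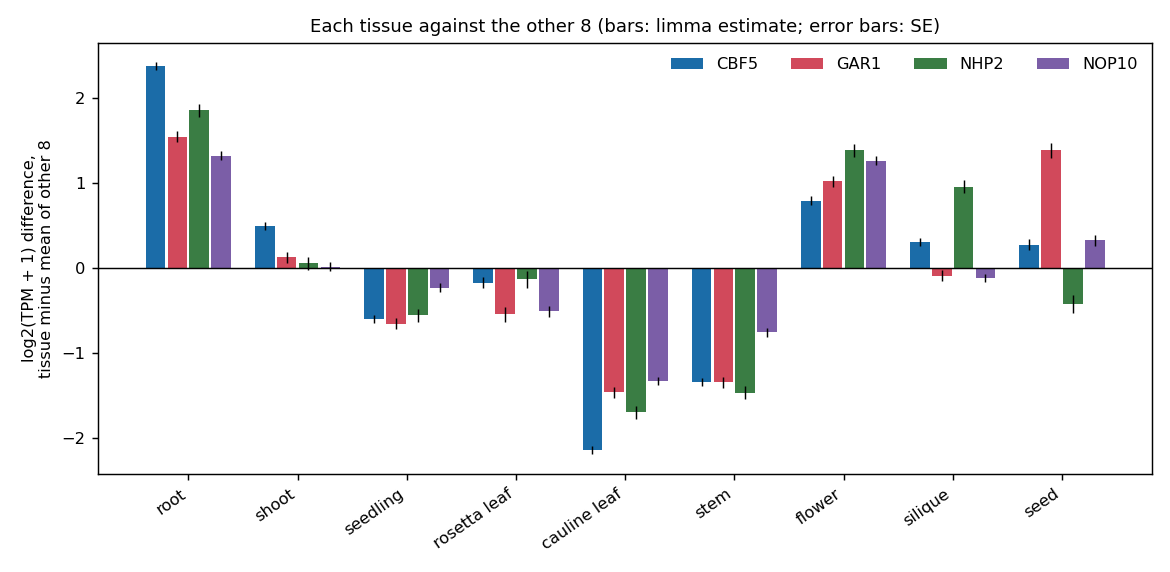
Difference in log2(TPM + 1) between each tissue and the mean of the other 8 (vertical axis) for the 4 genes; bars are limma estimates and error bars their SE. Root and flower bars are all above 0, seedling, stem and cauline leaf bars all below 0, and in seed the bars run from 1.39 for GAR1 to -0.42 for NHP2; the small shoot bars of GAR1, NHP2 and NOP10 and the rosetta leaf bars of CBF5 and NHP2 change sign after rescaling.

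Ratios of TPM within a column do not depend on how columns were scaled, and they showed that the 4 mRNAs did not keep a fixed proportion. GAR1 over CBF5 was 4.58 in seed and 3.85 and 3.52 in cauline leaf, and lowest in root with 1.29 and 1.46. NOP10 over CBF5 was 2.15 and 2.36 in cauline leaf and 0.653 and 0.711 in root, the only tissue with both columns under 1. NHP2 over CBF5 was 1.13 and 1.06 in silique and 1.04 and 1.06 in flower, against 0.512 and 0.545 in root and 0.465 in seed. The widest spread was that of GAR1 over NHP2, 9.85 in seed and 1.54 and 1.77 in silique, a 5.98-fold spread of tissue means. With seed included, the spread of each of the 6 ratios over tissues was at least 2.35-fold (1.23 on the log2 scale). Columns of the same tissue differed by at most 0.45 on that scale, a gap that seed and rosetta leaf, with a single column each, cannot show. Seed was the highest or lowest tissue for every ratio except NOP10 over CBF5, which spread 3.31-fold from root to cauline leaf. Outside seed, columns ran only from 1.21 in stem to 2.05 in root for GAR1 over NOP10. For GAR1 over NHP2 they ran from 1.54 in silique to 4.1 in cauline leaf.

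**Figure D3:**
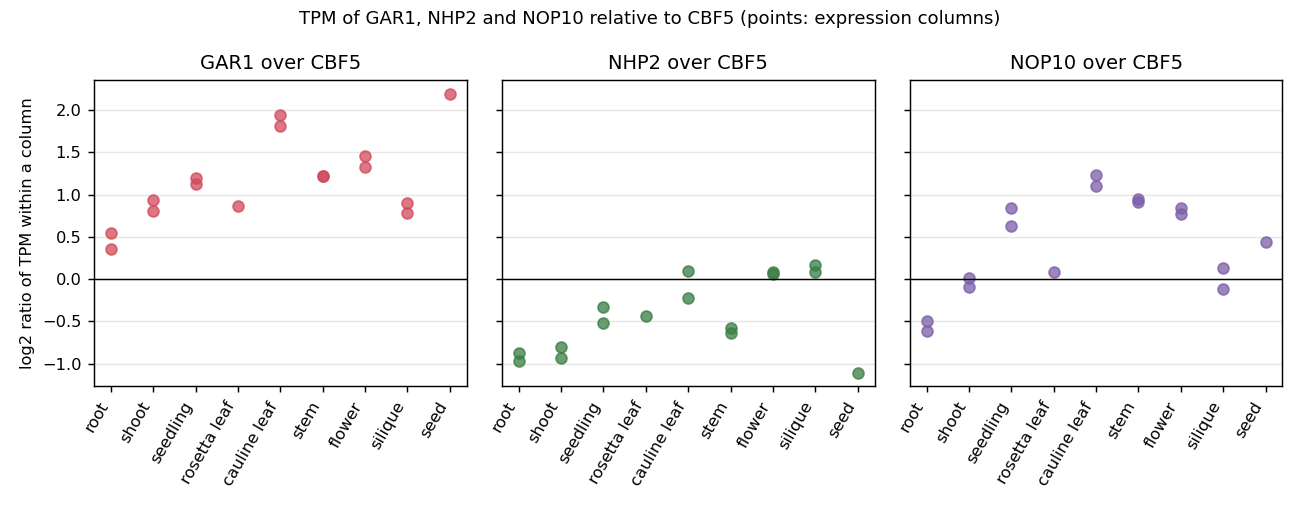
Log2 ratio of the TPM of GAR1, NHP2 and NOP10 to that of CBF5 (vertical axis), each point 1 expression column. Root has the lowest ratio of GAR1 and NOP10 to CBF5, cauline leaf the highest ratio of NOP10, and seed both the highest ratio of GAR1 (2.20) and the lowest of NHP2 (-1.10).

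GAR1 was the only one of the 4 genes with a listed Ψ site. Of all 32548 genes on nuclear chromosomes, 16.5% held a listed site on their strand, and of the 5349 genes with a mean TPM at or above that of NHP2, the lowest of the 4, 54.1% did. The Ψ fraction is the authors' calibrated share of gapped reads, from 0 to 1, with the treated libraries of a tissue combined, so it has no error between libraries, and the read depth behind it is not known. The exon 4 site was called in 8 tissues, with fractions of 0.173 in root, 0.154 in shoot, 0.199 in seedling, 0.142 in rosetta leaf, 0.177 in stem, 0.171 in flower, 0.187 in silique and 0.132 in seed. Cauline leaf had 0.104 there and was not called. The called fractions thus spanned 0.132 to 0.199 while the TPM of GAR1 in those tissues ranged from 44.7 in stem to 270 in root. Being called in 8 or 9 tissues was a property of 300 of the 8512 listed sites (3.52%), whereas 58.0% were called in a single tissue. These shares are over sites in genes of any level, and none was taken over genes as highly expressed as GAR1.

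The other GAR1 sites were each called in 1 tissue. The site at the first base of exon 3 had a fraction of 0.198 in silique, its single called tissue, and 0.0508 in shoot, 0.00944 in flower and 0 in the other 6. It abuts a splice junction, and whether that position affects the share of gapped reads was not tested. The 5′-UTR site was called in seed, with 0.129. It had nearly the same fraction in cauline leaf, 0.126, where it was not called, and 0.104 in stem, also not called, with 0.0346 to 0.0589 in the other 6 tissues. The call in 1 tissue therefore did not mark a fraction that stood apart from all other tissues at this site.

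**Figure D4:**
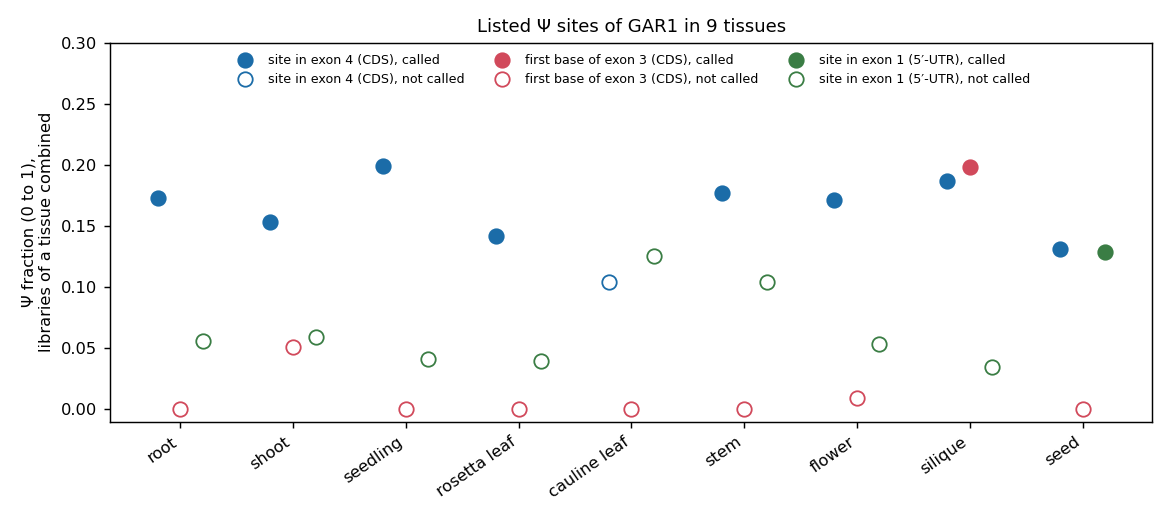
Ψ fraction (vertical axis, 0 to 1) at the 3 listed GAR1 sites in 9 tissues, with the libraries of a tissue combined and no error bars; filled points were called by the authors and open points were not. The exon 4 site is filled in every tissue except cauline leaf, the exon 3 site only in silique and the 5′-UTR site only in seed.

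Other annotated genes overlap GAR1. The 3′ end of GAR1 shares 24 bases with GDH3 (AT3G03910, a glutamate dehydrogenase gene) on the opposite strand, which read 44.3 and 41.0 TPM in root and 0.0433 TPM in seed. An antisense non-coding gene inside GAR1, AT3G01375, was listed at 0 in 14 of the 16 columns and reached 0.491 TPM. Whether the counting behind the TPM used strand is not given in the sources used here, so reads in the shared bases cannot be told apart.

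Genes of box C/D snoRNPs, of H/ACA snoRNP assembly and of ribosome biogenesis were examined to place the 4 in context. The box C/D core list had 9 genes, among them the fibrillarins FIB1 and FIB2, which methylate ribose, the scaffold proteins NOP56 and NOP58, and homologues of SNU13, the protein that first recognises the guide RNA. In root, 9 of 9 were called higher (median difference 1.89 on the log2 scale) beside 4 of 4 H/ACA genes (1.71). Of all genes tested, 50.4% were called higher there (median 0.21). In cauline leaf, 9 of 9 were called lower (median -1.62) beside 4 of 4 H/ACA genes (-1.58), where 44.1% of all genes were called lower (-0.15). Stem, seedling and flower also gave the same count direction in full for both lists, lower in stem and seedling and higher in flower. Of all genes tested, 43.6% were called lower in stem, 29.3% lower in seedling and 47.0% higher in flower.

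FIB2 (AT4G25630) had the widest range of the box C/D list, 230 TPM in root and 5.71 TPM in cauline leaf, a 40.3-fold range. FIB1 (AT5G52470) was instead highest in seed with 397 TPM and had 86.3 TPM in cauline leaf. NOP56 (AT1G56110) averaged 205 TPM in root and 15.9 TPM in cauline leaf, close in level to CBF5, and its relative AT3G12860 had 15.8 TPM in root and 0.524 TPM in rosetta leaf. The NOP58 genes AT5G27120 and AT3G05060 had 107 and 111 TPM in root, and 6.82 and 13.6 TPM in cauline leaf. Of the SNU13-like genes, AT4G12600 had 183 TPM in root and 16.0 TPM in cauline leaf, AT5G20160 had 144 TPM in root and 28.9 TPM in stem, and AT4G22380 had 62.5 TPM in flower and 21.9 TPM in cauline leaf. In seed the list was divided, as the H/ACA genes were, with 4 called higher, 4 lower (1 lower after rescaling) and 1 not called. Of all genes tested, 22.8% were called higher and 60.5% lower in seed. FIB1 was higher there by 1.09 ± 0.04 on the log2 scale and FIB2 was lower, with -1.59 ± 0.07 (SE, limma adjusted p = 3.86e-10 and 7.67e-10).

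The H/ACA assembly list held NAF1 (AT1G03530), which in yeast occupies the place of GAR1 on the immature particle, a second GAR1 gene (AT5G18180) and genes of the RuvB-like helicases RIN1, RVB2A and RVB2B, which act in snoRNP assembly in yeast and human. NAF1 was highest in seed with 17.1 TPM and lowest in cauline leaf with 3.74 TPM. The second GAR1 gene had 5.45 TPM in seed and 0.942 TPM in shoot. By the deposited TPM, AT3G03920 held most of the GAR1 expression (means of 1.86 and 128 TPM over tissues for AT5G18180 and AT3G03920). How any reads that match both genes were counted is not given in the sources used here. RIN1 (AT5G22330) and RVB2A (AT5G67630) had 57.6 and 55.9 TPM in seed, and 17.1 and 10.0 TPM in rosetta leaf. RVB2B (AT3G49830) had a tissue mean of at most 0.88 TPM. In seed 4 of the 5 were called higher (median difference 1.31 on the log2 scale), where 22.8% of all genes tested were called higher (median -0.63). In root 5 of 5 were called higher (0.51), where 50.4% of all genes were called higher (median 0.21). RVB2B read only 0.906 and 0.663 TPM in root, and the second GAR1 gene 3.65 and 1.75 TPM (limma adjusted p = 0.0425).

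The ribosome biogenesis list had 28 genes of pre-ribosomal RNA processing and ribosome assembly. In root 25 were called higher and 1 lower (median 1.04 on the log2 scale), where 50.4% of all genes tested were called higher. In cauline leaf 1 was called higher and 26 lower (median -1.11, with 44.1% of all genes lower), and in stem 1 higher and 27 lower (-0.90, with 43.6% lower). In seed 25 were called higher and 0 lower (0.92, with 22.8% of all genes higher), and in silique the list was mixed, with 8 higher and 12 lower (-0.01, with 42.0% higher). Its 3 widest ranges were those of NUC-L2 (AT3G18610, a nucleolin), with 12.8 TPM in seed and 0.323 TPM in rosetta leaf, AT2G27200, with 25.4 TPM in seed and 2.12 TPM in rosetta leaf, and AT1G52930, with 67.6 TPM in root and 7.11 TPM in cauline leaf. Its 3 narrowest were those of the RNA helicase RH36 (AT1G16280), with 10.7 TPM in seed and 5.71 TPM in rosetta leaf, the exosome cofactor MTR4 (AT1G59760), with 27.2 TPM in shoot and 13.3 TPM in cauline leaf, and the RNA-binding protein PUM23 (AT1G72320), with 21.3 TPM in root and 9.75 TPM in cauline leaf.

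**Figure D5:**
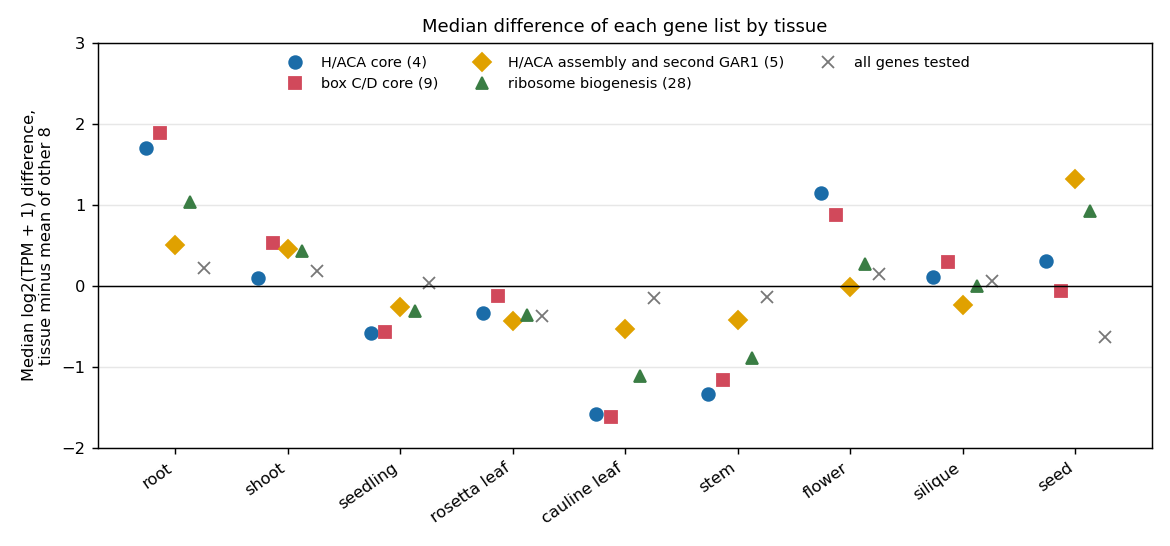
Median difference in log2(TPM + 1) between each tissue and the mean of the other 8 (vertical axis) for the H/ACA core genes, 3 other gene lists and all genes tested. H/ACA and box C/D medians lie side by side in root (1.71 and 1.89) and cauline leaf (-1.58 and -1.62), whereas in seed the assembly and ribosome biogenesis medians are 1.31 and 0.92, the H/ACA median 0.30 and the box C/D median -0.07.

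Over the 9 tissue means, which share their columns and their scaling, the 4 genes had pairwise Pearson r of 0.78 (GAR1 and NHP2) to 0.925 (CBF5 and NHP2) on the log2(TPM + 1) scale. Among 21504 other genes with at least 5 TPM in a tissue, the patterns most like CBF5 were those of AT1G60640 (r = 0.997), AT2G28600 (0.995) and NOP56 (0.992). Those most like GAR1 were the prohibitin gene PHB3 (0.983), AT2G18220, annotated as a Noc2p family member (0.983), and the nucleolin gene NUC-L1 (0.98). For NHP2 they were HDA3 (0.989), which encodes a plant-type histone deacetylase, TOM6 of the mitochondrial import complex (0.986) and AT3G59650, a mitochondrial ribosomal protein family gene (0.983). For NOP10 they were the RNA helicase gene UAP56a (0.973) and the snoRNA genes AT2G43141 (0.983) and AT2G07605 (0.97).

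The genes with the highest mean r to all 4 were EIF3E, a translation initiation factor subunit, and UAP56a (0.936 each), followed by AT2G44860, of the ribosomal protein L24e family (0.934), AT1G80750, of the ribosomal protein L30/L7 family, and AT1G55890 (0.933 each). The median of this mean r was 0.91 over the box C/D list, 0.834 over the ribosome biogenesis list, 0.612 over the 4 assembly genes that could be ranked and 0.119 over all ranked genes.

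The sequences upstream of the genes were searched for motifs known from plant genes of the translation apparatus, in the 250 bases before each annotated start and on both strands. The site II element was searched as TGGGCC and as TGGGCT, and the telo-box as AAACCCTA. At least 1 site II match was found for CBF5, GAR1 and NOP10 and none for NHP2, and the telo-box letters were found in none of the 4 windows. Over 27444 protein-coding genes, 19.2% of windows held a site II match and 4.49% the telo-box letters. A site II match was found for 6 of 9 box C/D genes, 18 of 28 ribosome biogenesis genes (64.3%) and 0 of 5 assembly genes, and the telo-box letters for 4 of 9 box C/D and 3 of 28 ribosome biogenesis genes. The windows of the 3 genes with matches are printed up to 170 bases before the start, or up to the next gene, with the matches in capitals, where GGCCCA and AGCCCA are the motifs read on the other strand.
CBF5 upstream, minus strand, chr3:21156076-21156245: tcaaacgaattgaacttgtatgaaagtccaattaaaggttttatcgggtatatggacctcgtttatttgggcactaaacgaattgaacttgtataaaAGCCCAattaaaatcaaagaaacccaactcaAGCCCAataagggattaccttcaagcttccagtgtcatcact
GAR1 upstream, minus strand, chr3:1010574-1010743: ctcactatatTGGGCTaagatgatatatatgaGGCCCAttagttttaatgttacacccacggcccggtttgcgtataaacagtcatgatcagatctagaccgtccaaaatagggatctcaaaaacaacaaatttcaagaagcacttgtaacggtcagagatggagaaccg
NOP10 upstream, plus strand, chr2:8831616-8831680: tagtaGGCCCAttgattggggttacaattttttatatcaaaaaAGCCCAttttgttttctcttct
In CBF5 the matches began 73 and 42 bases before the start, in GAR1 160 and 138, and in NOP10 78, 60 and 22, the first of which lies inside the neighbouring gene AT2G20480 and is not printed. Whether the matches, or their absence in NHP2, bear on the tissue levels was not tested. These are matches of letters, and no binding was measured.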

How the data were processed

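The authors sequenced 56 bisulfite-treated and 16 input libraries from poly(A)-tailed RNA. They deposited gene expression as TPM, and the deposited columns were matched to tissues by name; that they are the input libraries was inferred from the equal number of columns, and the aligner and counter behind the TPM are not given in the sources used here. The authors deposited for each site and tissue 1 Ψ fraction, calibrated from gapped reads after libraries were combined and aligned to TAIR10, and a call by a filter whose threshold is not stated.

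The members and gene lists were chosen with earlier results of these data known. TPM was analysed as log2(TPM + 1) for the 26078 genes with at least 1 TPM in a column, with limma 3.58.1 (R 4.3.3; tissue as the only term, variance trend, Benjamini-Hochberg adjustment over all genes tested, two-sided, threshold 0.05), tested on simulated data. All 16 columns shared 1 estimate of the spread (7 residual degrees of freedom). The study's methods speak of biological replicates, but which columns these are and whether they came from separate plants is not stated, so p-values measure only the spread between columns. The depth behind TPM and fractions is unknown. Sites were assigned to genes by coordinates and strand. Named genes were the members, the box C/D and assembly lists, the 3 widest and 3 narrowest ribosome biogenesis genes, and the 3 (or, over all members, 5) highest Pearson r. Python 3.11.15 with pandas 2.3.3, numpy 2.4.6 and matplotlib 3.10.9 was used for the rest. Alternatives were pseudocounts of 0.1 and 5, no filter, 1 TPM in every column, rescaled columns, no variance trend, a replicate block, each column left out in turn in the 7 tissues with 2 columns, seed left out, and a minimum fraction of 0.1.

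Flower, silique, seed, root, stem and green tissue marker lists each had their highest summed TPM in the tissue they name (for green tissue, rosetta leaf). The nearest second was seedling for root markers, with 1936 TPM beside 2108 TPM in root. Silique was second for flower markers (117 TPM beside 456 TPM in flower) and for stem markers (505 TPM beside 1384 TPM in stem). It was also second for seed markers, with 6734 TPM beside 19690 TPM in seed.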

Additional observations from a re-analysis of the deposited data

How the results depend on the processing

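Leaving out in turn each of the 14 columns of the tissues with 2 columns kept the direction of all 504 differences of the 4 genes from the other tissues and moved 5 of them past the threshold. Seed was left out as a tissue, and rosetta leaf was not left out. Of 284 differences under the other alternatives, 270 kept their direction and side of the threshold, 5 lost their call, 3 gained one and 6 reversed. Rescaling the columns reversed CBF5 in rosetta leaf (0.18), GAR1 in shoot (-0.14), NHP2 in shoot (-0.20) and rosetta leaf (0.21) and NOP10 in shoot (-0.24), on the log2 scale, and without seed GAR1 in silique was 0.0876. CBF5 in rosetta leaf lost its call without the variance trend or without seed (limma adjusted p = 0.0585 and 0.0731). The number of genes that differed among tissues was 13104 with at least 1 TPM required in every column, since fewer genes were tested; it was 25156 to 25371 when columns were left out. Leaving out columns gave 33 to 35 tissue pairs called for CBF5, 31 to 34 for GAR1, 31 to 35 for NHP2 and 32 to 34 for NOP10. F of NHP2 was 882.2 and 816.7 without cauline leaf column 1 or 2, and F of NOP10 was 454.2 and 455.1 without silique column 1 or 2. Calls were gained for GAR1 in shoot (0.14) without cauline leaf column 1 or seedling column 2, for NHP2 in rosetta leaf (-0.16) without cauline leaf column 2, and for NOP10 in silique (-0.13 and -0.22) without flower column 2 or silique column 2. Calls were also gained for GAR1 in shoot without seed (0.31, limma adjusted p = 0.00118) and for NOP10 in silique with a pseudocount of 5 (-0.12, 0.0322) or with 1 TPM required in every column (-0.12, 0.0417). After rescaling, 15 in place of 23 ribosome biogenesis genes were called higher in shoot, and 6 in place of 0 box C/D genes in rosetta leaf. The replicate numbers did not pair the columns: the 21 correlations of deviations ran from -0.07 to 0.09. With a replicate block the 4 genes had 35, 32, 32 and 33 pairs called and 25313 genes differed among tissues, and no call of the 4 genes against the other 8 tissues changed. Unknown read depth and combined libraries leave the Ψ fractions without an error.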
